A study of Mus musculus with 6 samples.

Results

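The genes of myoglobin, creatine kinase and ATP transfer were followed in hearts with and without the long non-coding RNA *Trdn-as*. The set held 10 genes, *Mb*, *Ckm*, *Ckmt2*, *Ckb*, *Slc25a4*, *Slc25a5*, *Slc25a3*, *Ak1*, *Slc6a8* and *Vdac1*, taken by symbol from the 21776 genes of the deposited table. All 10 were listed, and all 10 passed the filter on low values, a mean of at least 10 over the libraries, together with 13753 genes in all. Whole hearts of 3 homozygous *Trdn-as* KO mice and 3 WT mice were each sequenced as 1 stranded total RNA library. In the KO mice a polyA cassette, placed in the first exon of *Trdn-as* with Cas9 in mouse ES cells, ends transcription of this antisense RNA, and the line was backcrossed to C57BL/6. The allele comes through the germ line, so it is carried by all cells of the heart and not by cardiomyocytes alone. WT hearts carried no allele or treatment that the sources used here name. Age, sex and litter of these 6 hearts are not given in the sources used here, so p-values measure only the spread between these samples. In a bulk sample, fewer cells of a type and less RNA per cell cannot be told apart.

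Cardiac muscle makes nearly all of its ATP in mitochondria and spends it at the myofibrils and calcium pumps. Myoglobin stores oxygen and eases its passage to the mitochondria. ATP leaves the matrix through the adenine nucleotide carriers of the inner membrane, phosphate enters through its own carrier, and porins let both cross the outer membrane. Creatine kinases at the mitochondria and at the myofibrils pass the high-energy phosphate on as phosphocreatine, for which the cell must import creatine, and adenylate kinase recovers ATP from ADP.

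Some members have near copies in the genome that could take reads from them. The authors kept only reads with 1 location, so a 75-base read that matches a member and a pseudogene alike would not be counted. Of the 75-base windows of the principal transcript, 27.9% in *Slc25a5* (325 windows, shared with 6 pseudogenes), 13.4% in *Ckb* (188 windows, shared with Gm12892) and 2.34% in *Slc25a3* (36 windows, shared with Gm13904) recurred elsewhere. The other 7 members had no such window. The levels of *Slc25a5*, *Ckb* and *Slc25a3* are therefore uncertain, the more so the larger this share, in all 6 libraries alike. A window of each of the first 2 genes shows both facts, since it is identical in a pseudogene but differs from the paralog among the members. The capitals mark the bases that differ from the paralog, *Slc25a4* for *Slc25a5* and *Ckm* for *Ckb*. Both were read from GENCODE M21 (GRCm38) on the coding strand, at coding bases 411 to 485 of *Slc25a5* and 751 to 825 of *Ckb*.
Slc25a5: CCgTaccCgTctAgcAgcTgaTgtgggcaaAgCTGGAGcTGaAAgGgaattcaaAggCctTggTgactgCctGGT
Ckb: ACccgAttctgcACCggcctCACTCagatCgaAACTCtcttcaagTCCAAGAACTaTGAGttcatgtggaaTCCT
Over the whole coding sequence, *Slc25a5* and *Slc25a4* were identical at 77.4% of 894 bases, and *Ckb* and *Ckm* at 75.9% of 1143 bases. The *Slc25a5* window differs from *Slc25a4* at 29 bases and recurs in Gm5560 on chromosome 5, and the *Ckb* window differs from *Ckm* at 35 bases and recurs in Gm12892 on chromosome 4. No window was shared between the paralogs themselves, so reads of this length separate them, whereas the pseudogene copies of these windows cannot be separated. Of the 6 pseudogenes of *Slc25a5*, the table lists 3, Gm5256, Gm5529 and Gm5560, with values between 0 and 5 in every library. Genes on the opposite strand overlap *Mb*, *Ckm* and *Ckmt2*, and the authors counted by strand. The 2 of them that the table lists, A930016O22Rik at *Ckm* and 1700119I11Rik at *Ckmt2*, had values of 4 to 16 and 0 to 3.

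The libraries behind these values differed in depth. Counted reads, recovered from how the rounded values are spaced, ran from 2.59 M in WT replicate 1 to 3.62 M in KO replicate 1, and the KO mean was 1.11 times the WT mean. The labels held for the targeted RNA, with values of 690, 773 and 688 for *Trdn-as* (listed as AC157017.2) in WT hearts and of 1, 0 and 1 in KO hearts. Over all genes, 4 of 13753 (0.0291%) passed the threshold of 0.05 on the adjusted p between KO and WT (two-sided limma fit, adjusted by Benjamini-Hochberg), and none of them was a member. Cardiomyocyte genes were abundant, and skeletal muscle genes were not: *Myh1* and *Myh4* were not among the genes listed, and the other 4 of 6 skeletal markers summed to 13 to 17 in KO and 10 to 14 in WT hearts.

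Levels can be compared between members only per length. Per kilobase of the principal GENCODE transcript, *Mb* stood first with a normalised read count of 808 over the 6 libraries, and *Ckmt2*, the mitochondrial creatine kinase of striated muscle, followed with 732. Next came *Slc25a4*, the adenine nucleotide carrier that prevails in heart, with 509, *Slc25a3*, the mitochondrial phosphate carrier, with 490, and *Vdac1*, a porin of the outer membrane, with 420. *Ak1*, the cytosolic adenylate kinase, had 352 per kilobase and *Ckm*, the cytosolic creatine kinase of muscle, 298. The lower end of the order was held by *Slc25a5*, the more widely expressed adenine nucleotide carrier, with 261, by *Slc6a8*, the creatine transporter, with 147, and by *Ckb*, the creatine kinase known from brain, with 98.8.

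Neighbours in this order were separated in only some cases. The library ranges of *Mb* (716 to 982) and *Ckmt2* (666 to 818) overlapped, as did those of *Slc25a4*, *Slc25a3* and *Vdac1* in turn, of *Ak1* and *Ckm*, and of *Ckm* and *Slc25a5*. Gaps lay between *Ckmt2* and *Slc25a4*, between *Vdac1* and *Ak1*, between *Slc25a5* and *Slc6a8*, and between *Slc6a8* and *Ckb*. Within each single library, however, every gene exceeded the next one in the order, in 6 of 6 libraries for all 9 neighbouring pairs. The order rests on the annotated length for *Ckm* and *Slc25a4*, and on the windows shared with pseudogenes for *Slc25a5*, 2 alternatives that were chosen after seeing the data. With the transcript limited to the span of the RefSeq gene, *Ckm* shortens from 2742 to 1415 bases and *Slc25a4* from 1925 to 1332 bases, their levels become 577 and 735 per kilobase, and they move from the seventh to the fourth and from the third to the second place. Over the windows not shared with other genes, *Slc25a5* comes to 361 per kilobase in place of 261, between *Vdac1* and *Ak1*. The authors also removed duplicate reads, which hides more reads of a dense gene. A correction for occupied start positions, likewise applied to the levels after seeing the data, raises the level of *Mb* by 2.03 times, of *Ckmt2* by 1.81 times and of *Ckb* by 1.05 times, so the distances between members are uncertain, while the order stays as given.

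**Figure D1:**
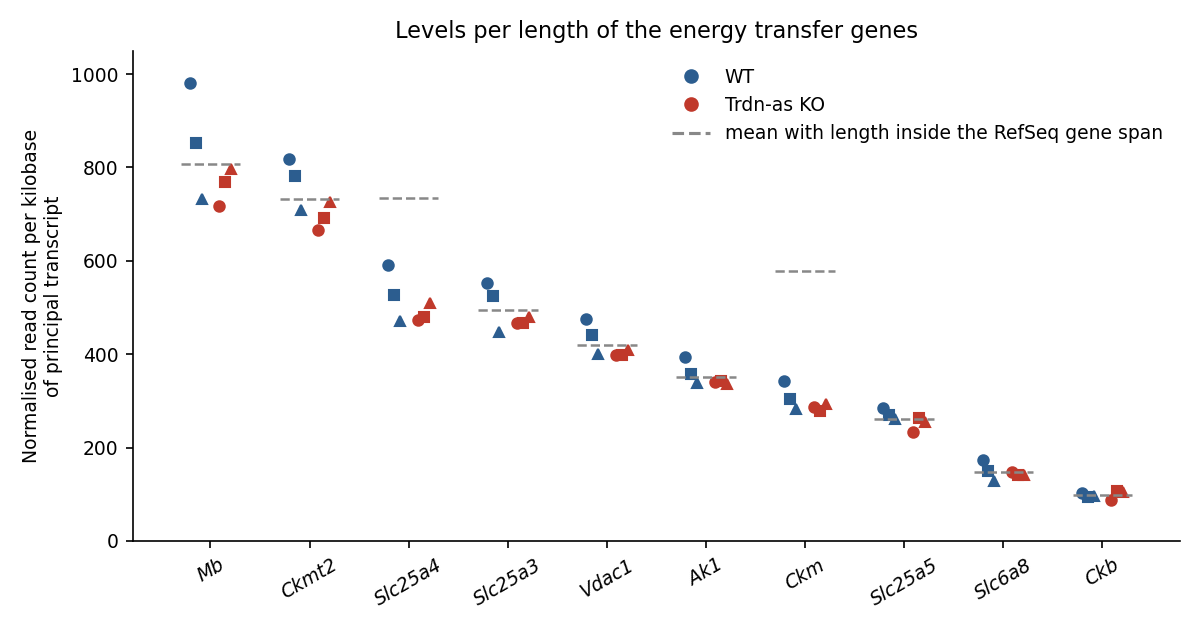
Normalised read count per kilobase of principal transcript (vertical axis) for each of the 10 genes, with 1 point per heart, blue for WT and red for *Trdn-as* KO, and circles, squares and triangles for replicates 1, 2 and 3. Dashed lines give the mean over 6 libraries with the length inside the RefSeq gene span, which moves *Slc25a4* from 509 to 735 and *Ckm* from 298 to 577.

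The first comparison asked whether loss of *Trdn-as* went with a change in these transcripts. None of the 10 members passed this threshold in the limma fit over 13753 genes, and the adjusted p-values ran from 0.851 to 0.984. At an unadjusted p under 0.05 the member count was 1, *Ckmt2*, and 2.80% of all genes tested were lower in KO at that level. With limma-voom the counts were again 0 and 1, beside 4 and 830 of 13753 genes tested in either direction. The KO mean lay under the WT mean for 9 of 10 members, where 49.4% of all genes tested were lower in KO. The median log2 fold change, KO minus WT on the log2(value + 1) scale, was -0.11 over the members and 0.0016 over all genes tested. For no member were all KO values under all WT values, a pattern found in 4.44% of all genes tested.

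*Mb*, which encodes myoglobin, is a minus-strand gene of chromosome 15 (GRCm38, 77015489 to 77050670). Normalised read counts of *Mb* were 791, 848 and 880 in the KO replicates and 1084, 940 and 808 in the WT replicates, in the order 1, 2 and 3 used throughout, which gave means of 840 ± 45.1 and 944 ± 138 (SD, n = 3 each). WT replicate 1 was the highest library and WT replicate 3 lay inside the KO range. The log2 fold change of *Mb* was -0.16 (SE 0.08), and limma gave it an adjusted p of 0.851. Its 95% interval ran from -0.33 to 0.01, so that KO levels between 0.796 and 1.01 times the WT level remained possible.

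Among the creatine kinases, *Ckm* (chromosome 7, 19411025 to 19422841, plus strand) had values of 788, 760 and 805 in KO and 938, 836 and 774 in WT hearts, means of 784 ± 22.7 and 849 ± 82.8 (SD, n = 3 each). The difference of *Ckm* was -0.11 (SE 0.07) on the log2 scale. *Ckmt2* (chromosome 13, 91853387 to 91876885, minus strand) had values of 990, 1028 and 1080 in KO and 1215, 1162 and 1052 in WT hearts, means of 1033 ± 45.2 and 1143 ± 83.1 (SD, n = 3 each). Only WT replicate 3 of *Ckmt2* lay within the KO values. At -0.14 (SE 0.06) on the log2 scale, with an unadjusted p of 0.0314 from limma over all genes, *Ckmt2* came nearest to the threshold, but its adjusted p was 0.851. *Ckb* (chromosome 12, 111669361 to 111672338, minus strand) was the 1 member with a higher KO mean. Its values were 130, 157 and 155 in KO and 152, 138 and 141 in WT hearts, with KO replicate 1 the lowest and KO replicate 2 the highest library. The log2 fold change of *Ckb* was 0.03 (SE 0.10).

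*Slc6a8*, which brings creatine into the cell, is a plus-strand gene of chromosome X (73673150 to 73682502). Its values were 487, 468 and 471 in KO and 576, 493 and 422 in WT hearts. The KO hearts were close together and sat in the middle of a wide WT range, with SDs of 10.2 in KO and 77.1 in WT (n = 3 each). The log2 fold change of *Slc6a8* was -0.05 (SE 0.09, 95% interval -0.23 to 0.13).

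*Ak1*, a plus-strand gene of chromosome 2 (32621758 to 32635058), had values of 709, 714 and 700 in KO and 823, 747 and 707 in WT hearts, which differ by -0.10 (SE 0.06) on the log2 scale. KO values of *Ak1* had an SD of 7.09, the smallest of the members in KO, against 58.9 in WT (n = 3 each).

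The 3 inner membrane carriers had mean values under those of WT hearts in the KO hearts. *Slc25a4* (chromosome 8, 46206797 to 46211284, minus strand) had values of 911, 923 and 983 in KO and 1137, 1015 and 908 in WT hearts, with WT replicate 3 under every KO library. *Slc25a5* (chromosome X, 36795651 to 36798807, plus strand) had values of 288, 327 and 315 in KO and 352, 334 and 323 in WT hearts. *Slc25a3* (chromosome 10, 91116574 to 91124059, minus strand) had values of 751, 753 and 774 in KO and 892, 847 and 722 in WT hearts, again with WT replicate 3 the lowest library. Their log2 fold changes were -0.11 (SE 0.07), -0.12 (SE 0.08) and -0.11 (SE 0.07), and the adjusted p-values from limma ran from 0.887 to 0.894. *Vdac1*, a plus-strand gene of chromosome 11 (52360860 to 52389397), had values of 806, 806 and 825 in KO and 961, 891 and 809 in WT hearts. At -0.12 (SE 0.06) on the log2 scale its adjusted p was 0.851 (limma), and WT replicate 3 lay inside the KO range.

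**Figure D2:**
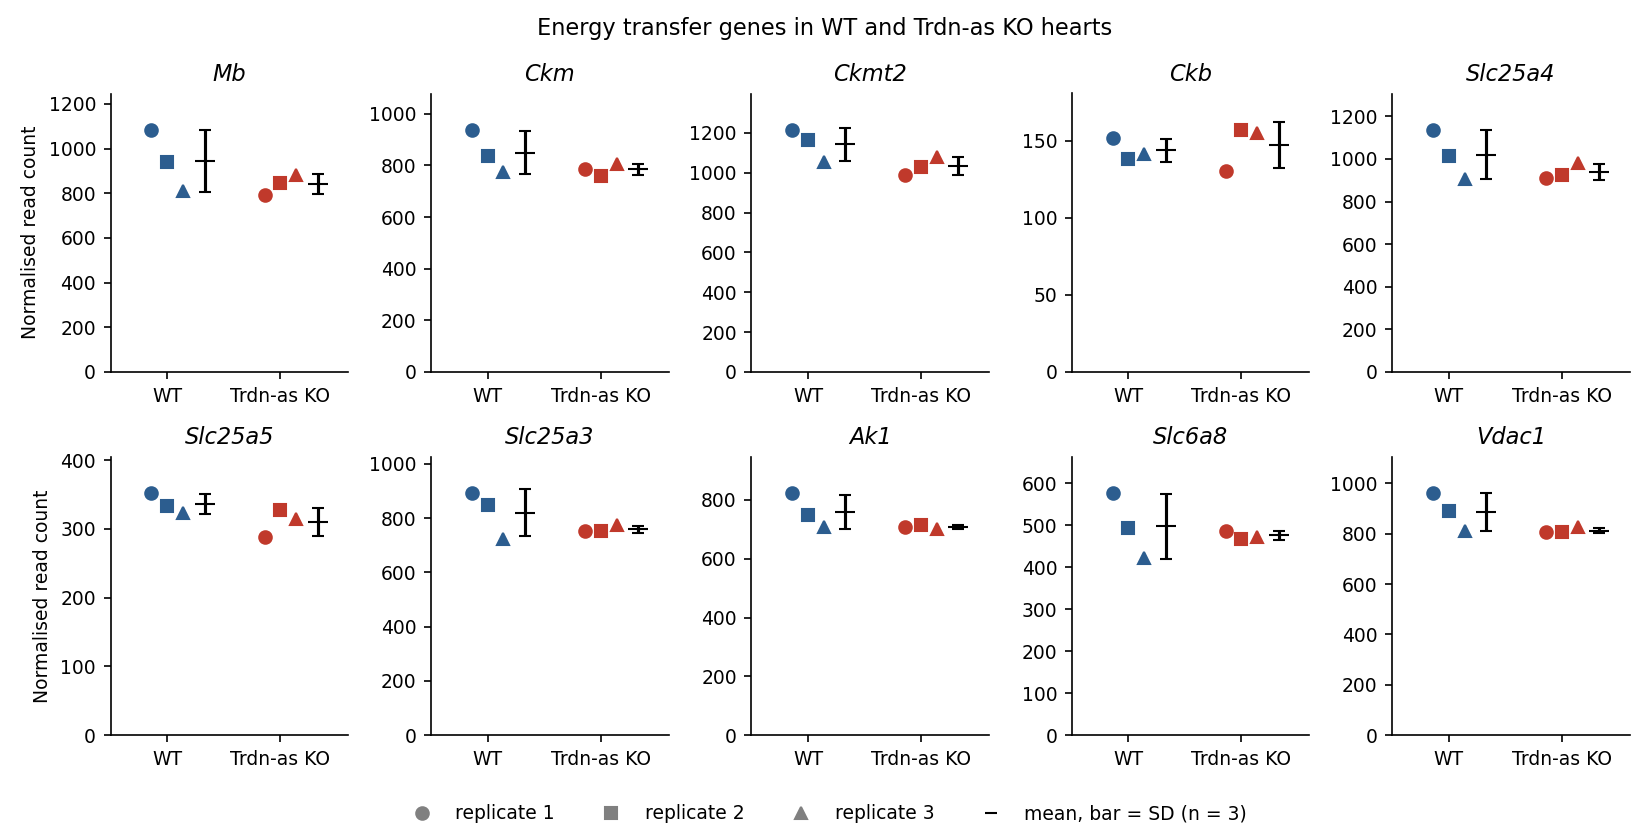
Normalised read count (vertical axis, from 0, a separate scale for each gene) of the 10 genes in each heart, blue for WT and red for *Trdn-as* KO, with circles, squares and triangles for replicates 1, 2 and 3 and the mean with its SD (n = 3) in black. KO and WT values overlap in every panel, and WT replicate 1 is the highest library for 9 of the 10 genes.

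The interval of the difference reached 0 for 9 of 10 members. The exception was *Ckmt2*, with an interval from -0.27 to -0.01 before adjustment. Across the 10 genes the lowest bound was 0.796 times the WT level, for *Mb*, and the highest was 1.19 times, for *Ckb*.

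What the members shared was the ordering of the libraries. WT replicate 1 gave the highest value of 9 members, and KO replicate 1 and WT replicate 3 gave the lowest value of 5 and 3 members, for *Vdac1* tied with KO replicate 2. The median log2 deviation of the 10 members from their own means was 0.18 in WT replicate 1, 0.05 in WT replicate 2, -0.02 in KO replicate 3, -0.06 in KO replicate 2, -0.07 in WT replicate 3 and -0.09 in KO replicate 1. Estimated library depth had exactly the reverse order, with 2.59, 3.04, 3.15, 3.31, 3.46 and 3.62 M reads in these libraries. Within the WT hearts alone, 9 of 10 members stood in the reverse order of depth, a pattern of 20.4% of all genes tested. Within the KO hearts, whose depths lie closer together, 4 of 10 members did so, *Mb*, *Ckmt2*, *Slc25a4* and *Slc25a3*, against 14.3% of all genes tested.

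The second comparison took this trend with depth directly. A slope on log2 library reads was fitted with the KO or WT group in the model, so that it rests on differences within the groups. A slope of 0 means that the normalised value keeps its level as a library deepens, and a slope of -1 that the gene yields the same number of reads at any depth. All 10 members had a negative slope, as did 51.3% of all genes tested. None passed an adjusted p of 0.05 (limma), as was true of all but 0.0654% of genes, or 9 of 13753. At an unadjusted p under 0.05, 7 members had a negative slope, against 3.77% of all genes tested. The median slope was -0.53 per doubling over the members and -0.02 over all genes tested.

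*Mb* had the steepest slope of the members, -0.96 per doubling (SE 0.19, 95% interval -1.37 to -0.56), and its adjusted p from limma was 0.0616. In estimated reads, the value times the size factor, *Mb* had 909, 897 and 885 in the KO libraries and 862, 897 and 891 in the WT libraries. The deepest library thus held 1.05 times as many *Mb* reads as the shallowest, for 3.62 against 2.59 M reads in total. At 806 reads per kilobase, *Mb* ranked 17th in read density of 13737 genes with a length. Duplicate reads were removed by the authors, and a single-end read is called a duplicate by its start position, so a transcript of 1104 bases offers about 1 place per base. *Mb* had 0.806 reads per base on average. A correction for occupied places, which raises the value of a dense gene by the reads expected to be hidden, left *Mb* with a slope of -0.77 (SE 0.21).

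*Ckmt2*, at 734 reads per kilobase and rank 25, had a slope of -0.51 (SE 0.18), and its estimated reads ran from 966 in WT replicate 1 to 1161 in WT replicate 3. The same correction brought *Ckmt2* to 0.094 (SE 0.21), the 1 member whose slope then was not negative. The slope of *Slc25a4*, at 510 reads per kilobase, was -0.72 (SE 0.19), for which limma gave an adjusted p of 0.250, and that of *Slc25a3*, at 491, was -0.62 (SE 0.21). *Vdac1*, at 422 reads per kilobase, had a slope of -0.51 (SE 0.20). *Ak1*, at 353, had a slope of -0.42 (SE 0.21), *Ckm*, at 299, of -0.56 (SE 0.20), and *Slc25a5*, at 262, of -0.38 (SE 0.27). The interval of the slope reached 0 for *Ak1* and *Slc25a5* and lay under 0 for the other 5 of these 7 genes. With the correction for occupied places, the slope of *Ckm* was -0.45 (SE 0.23), that of *Slc25a3* -0.42 (SE 0.24) and that of *Vdac1* -0.31 (SE 0.22). For *Slc25a5* it was -0.26 (SE 0.28) and for *Ak1* -0.24 (SE 0.23). Of these 7 genes *Slc25a4* alone, at -0.55 (SE 0.22), kept an unadjusted p under 0.05, a level that 866 of 13727 genes tested had in that fit.

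The 2 sparsest members were *Slc6a8* and *Ckb*. *Slc6a8*, at 147 reads per kilobase, had a slope of -0.82 (SE 0.26) and an adjusted p of 0.372 from limma. With the correction for occupied places, the slope of *Slc6a8* was -0.79 (SE 0.28). Its slope rests on 2 libraries, since it was -0.41 without WT replicate 1 and -0.44 without WT replicate 3. Its estimated reads were 560, 495 and 474 in KO and 458, 471 and 466 in WT hearts, so they hardly differed between the WT libraries but did between the KO libraries. *Ckb*, at 99.6 reads per kilobase, had a slope of -0.48 with an SE of 0.38, and its interval from -1.27 to 0.32 includes 0.

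**Figure D3:**
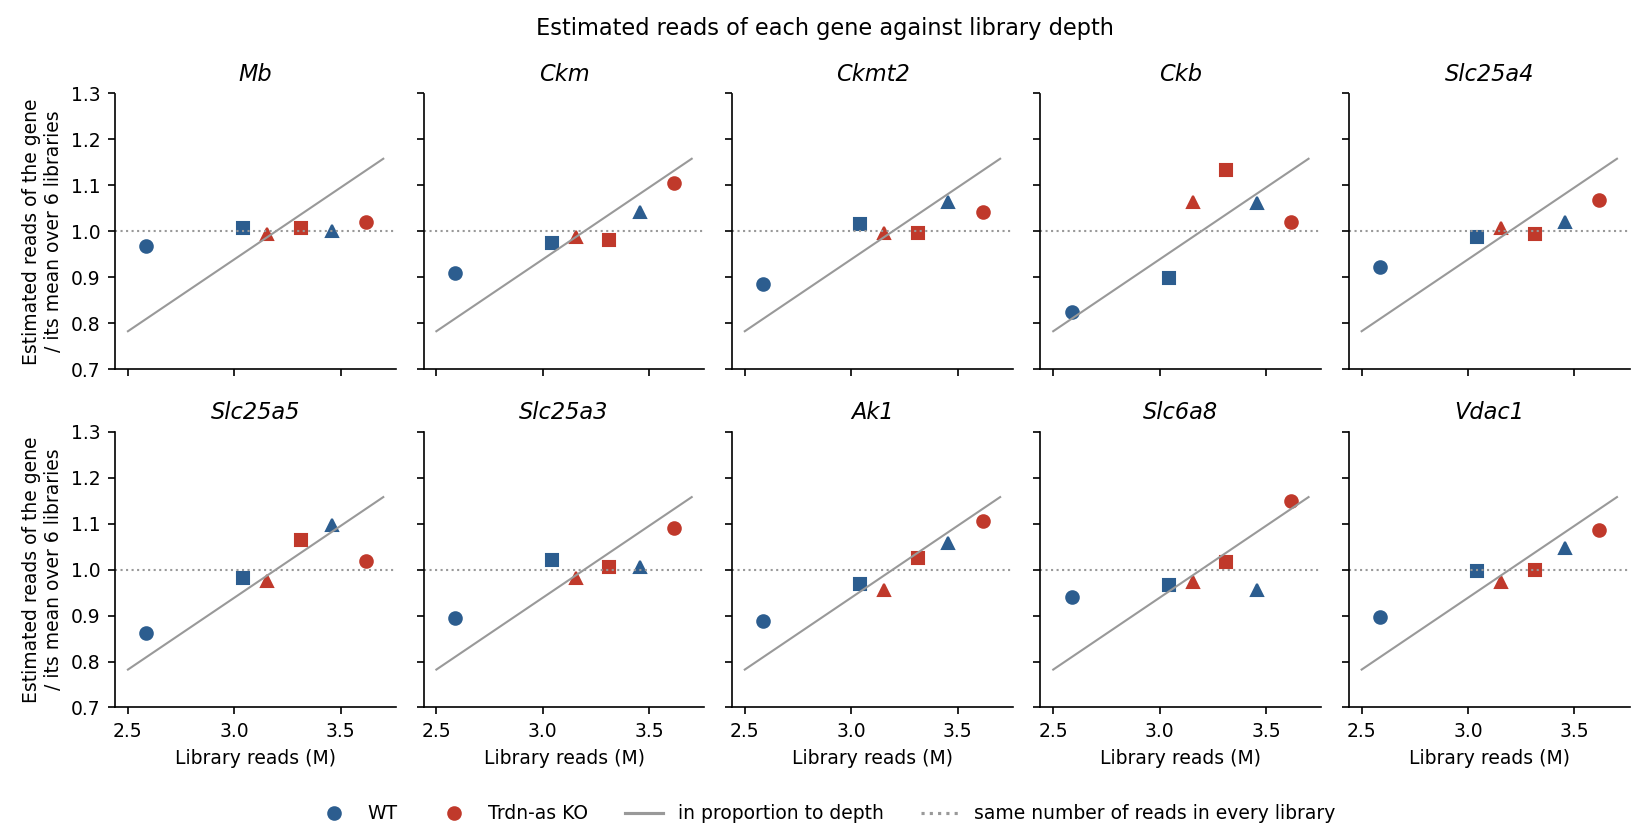
Estimated reads of each gene divided by their mean over the 6 libraries (vertical axis) against the estimated reads of the library in M (horizontal axis), blue for WT and red for *Trdn-as* KO, with circles, squares and triangles for replicates 1, 2 and 3. The solid line is proportional to depth and the dotted line is the same number of reads everywhere. *Mb* keeps to the dotted line, with 862 to 909 reads, while *Ak1* and *Slc25a5* lie closer to the solid line than *Mb* does.

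The slopes were set beside those of all genes of like density. Among 88 genes with at least 512 reads per kilobase, the class of *Mb* and *Ckmt2*, the median slope was -0.55, 96.6% of slopes were negative and the middle 50% of genes lay between -0.65 and -0.42. *Mb* at -0.96 lay under that range and *Ckmt2* at -0.51 inside it. Among 446 genes with 256 to 512 reads per kilobase, the class of *Ckm*, *Slc25a4*, *Slc25a5*, *Slc25a3*, *Ak1* and *Vdac1*, the median slope was -0.30 and the middle 50% of genes lay between -0.46 and -0.15. *Ckm*, *Slc25a4*, *Slc25a3* and *Vdac1* had slopes under that range in the fit of all 6 libraries. Without WT replicate 3 the slopes of *Ckm*, *Slc25a3* and *Vdac1* were -0.45, -0.27 and -0.33, and without WT replicate 1 those of *Ckm* and *Vdac1* were -0.32 and -0.43, all within it. The range itself was not computed without single libraries. With the length inside the RefSeq span, however, *Ckm* at 579 and *Slc25a4* at 736 reads per kilobase belong to the densest class, where the slope of *Ckm*, -0.56, lies inside the middle 50% and that of *Slc25a4*, -0.72, under it. The class of *Slc6a8*, 128 to 256 reads per kilobase with 1312 genes, had a median of -0.13 and its middle 50% lay between -0.31 and 0.03, well above the -0.82 of *Slc6a8*. *Ckb* belonged to the 5843 genes with 32 to 128 reads per kilobase, whose median slope was 0.0011.

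The KO against WT difference had the same gradient. Its median was -0.12 in the densest class, with 97.7% of genes lower in KO, -0.07 in the class of 256 to 512 reads per kilobase, with 87.9% lower, and -0.03 with 67.8% lower in the class of 128 to 256. It was 0.01 in the class of *Ckb*, with 46.6% lower. *Mb* at -0.16 and *Ckmt2* at -0.14 lay near the median of their class, and the 6 members of the next class, between -0.12 and -0.10, lay under theirs. By the RefSeq span, *Ckm* and *Slc25a4*, both at -0.11, would lie slightly above the median of the densest class.

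**Figure D4:**
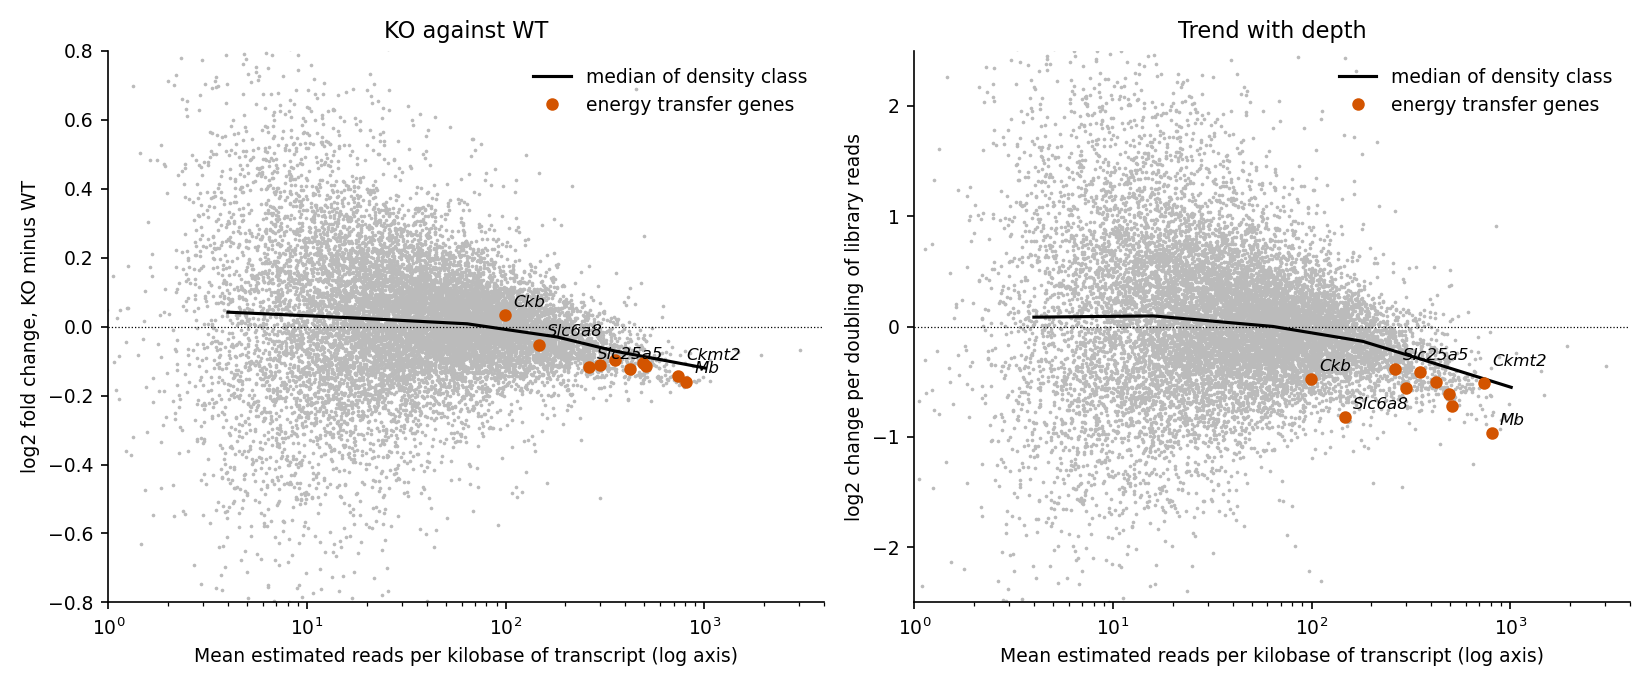
The left panel gives the log2 fold change, KO minus WT, and the right panel the log2 change per doubling of library reads, both against mean estimated reads per kilobase of transcript on a log axis. Grey points are all genes tested, those beyond the axis limits not drawn, the black line joins the medians of the density classes, and orange points are the 10 energy transfer genes. The medians descend with density to -0.12 and -0.55 in the densest class, and *Slc6a8* lies under the line in the right panel.

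Since KO libraries were deeper on average, depth and genotype overlap in this design. With library depth in the model, the median KO against WT difference of the members was -0.02 in place of -0.11, 7 of 10 were lower in KO, and none had an unadjusted p under 0.05. The difference of *Mb* became -0.01 (SE 0.06, 95% interval -0.13 to 0.12) and that of *Ckmt2* -0.06 (SE 0.06). *Slc6a8* had the opposite sign, 0.08 (SE 0.08), and *Slc25a4* came to 0.00026 (SE 0.06). A correction for read density, fitted over all genes, left a median of -0.03 over the members. That correction takes away whatever genes of like density share. The correction for occupied start positions left a median of -0.09, with 9 of 10 members lower in KO and *Ckmt2* still the 1 member at an unadjusted p under 0.05. Of 13727 genes tested in that fit, 767 were at this level. Which of depth and genotype goes with the small KO against WT difference cannot be told apart from 6 libraries.

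Single libraries weighed on both results. Without WT replicate 1, the shallowest library, the member median was -0.04, 8 of 10 members were lower in KO and none had an unadjusted p under 0.05. Without WT replicate 3 the median was -0.18 and 8 of 10 had an unadjusted p under 0.05, as did 1183 of 13753 genes tested. With all 6 libraries, 790 genes did. In the fit without WT replicate 3, *Mb* was at -0.27 (SE 0.07), with an adjusted p of 0.239 from limma. The slopes on depth kept a negative sign for all 10 members in each of the 6 fits that left out 1 library. At an unadjusted p under 0.05 the count of members was 1 without WT replicate 1 and 1 without WT replicate 3. Over all 13753 genes tested, 635 and 553 were at that level in these fits, against 1037 with all 6 libraries. The slope of *Mb* was -0.84 without WT replicate 3 and steeper in the other 5 fits. Without WT replicate 1, *Ak1* had a slope of -0.16 and *Ckm* of -0.32. *Ckb* had a slope of -0.26 without KO replicate 1 and of -0.92 without WT replicate 3. When KO replicate 1 was left out, the slopes of *Mb*, *Slc25a4* and *Slc6a8* passed an adjusted p of 0.05 (limma), among 131 of 13753 genes that did. That of *Mb* also passed without KO replicate 2, among 33 genes. With all 6 libraries, 9 genes passed.

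**Figure D5:**
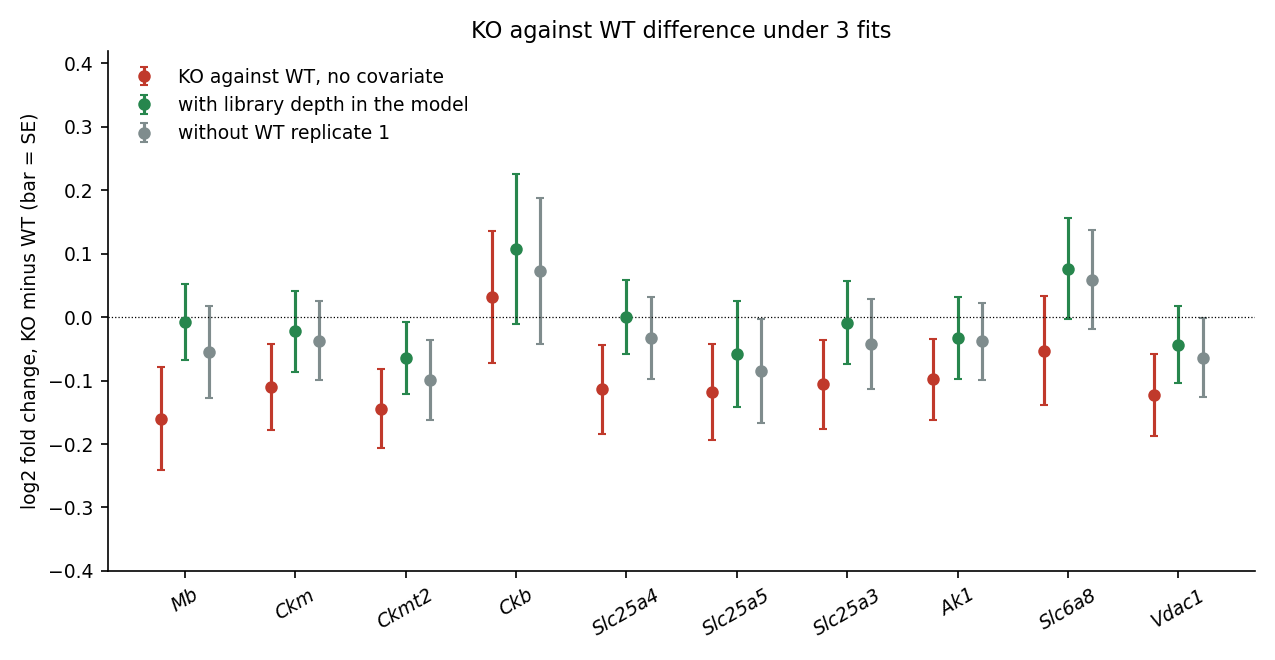
log2 fold change, KO minus WT, with its SE (vertical axis) for each of the 10 genes in 3 limma fits, red without a covariate, green with library depth in the model and grey without WT replicate 1. The *Mb* difference is -0.16 in the first fit, -0.01 with depth and -0.06 without WT replicate 1.

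Markers of the heart muscle cell were measured beside the members. All 8 cardiomyocyte markers, at 606 to 1074 reads per kilobase, belong to the densest class, in which 97.7% of genes were lower in KO and 96.6% had negative depth slopes. All 8 were lower in KO, by a median of -0.16 on the log2 scale, and their sum ran from 20607 to 22005 in KO and from 21471 to 26365 in WT hearts, with none at 0. All 8 also had negative depth slopes, with a median of -0.82. The 5 endothelial markers were all higher in KO, by a median of 0.03, with sums of 3892 to 4516 in KO and 3923 to 4405 in WT hearts. The 6 fibroblast markers split evenly, with sums of 3498 to 3958 and 3700 to 3970. Negative depth slopes were also found for 5 of 5 endothelial markers (median -0.45), 5 of 6 fibroblast markers (median -0.43), 4 of 5 smooth muscle and pericyte markers (median -0.37), 3 of 4 leukocyte markers tested (median -0.39) and 5 of 5 erythroid markers (median -0.60). All 4 atrial markers had positive depth slopes, with a median of 1.61, and they summed to 434 to 620 in KO and 449 to 566 in WT hearts. The 5 smooth muscle and pericyte markers summed to 2681 to 2966 in KO and 2736 to 3173 in WT hearts, and the 5 leukocyte markers to 447 to 694 and 542 to 597. The 5 erythroid markers summed to 164 to 304 and 151 to 423, and the 4 fat markers to 8 to 40 and 11 to 17. All 5 erythroid markers were lower in KO (median log2 fold change -0.22), as were 4 of 5 smooth muscle and pericyte markers (median -0.08). Of the 4 atrial markers, 3 were higher in KO (median 0.17), and the 4 leukocyte markers tested split evenly (median 0.06). At an unadjusted p under 0.05 between KO and WT (limma), 5 of the 8 cardiomyocyte markers were lower in KO, against 2.80% of all genes tested. None of the 8 passed an adjusted p of 0.05. No marker tested from the other lists had an unadjusted p under 0.05. The part of cell composition in the differences of the members was not tested.

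Likeness to *Mb* over the 6 libraries was also measured, as a description. The genes with the highest Pearson correlation of log2 values with *Mb*, among 7062 with a mean of at least 100, were *Ndufb10*, a subunit of respiratory complex I, and *Myh6*, the main myosin heavy chain of the mouse heart, both with r = 0.997, and *Ccng1*, a cyclin, with r = 0.996. These points share their libraries and depths, and 236 genes had an r above 0.9. *Ndufb10* had values of 291, 301 and 306 in KO and 342, 318 and 297 in WT hearts, the order of libraries seen for *Mb*.

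The wider pathway was covered by 37 further genes, of which 33 were listed and 28 tested. None passed an adjusted p of 0.05 (limma), 3 had an unadjusted p under 0.05, against 5.74% of all genes tested, and 11 were higher and 17 lower in KO, where 49.4% of all genes were lower. Their median was -0.04. The 3 were *Cygb*, *Nme2* and *Nme6*. *Cygb*, which encodes cytoglobin, the globin of fibroblast-like cells, had values of 274, 351 and 312 in KO and 294, 237 and 255 in WT hearts. Its difference was 0.25 (SE 0.10) on the log2 scale, opposite in sign to that of *Mb*. *Nme2* and *Nme6*, of the nucleoside diphosphate kinase family, which passes phosphate between nucleotides, were at 9 to 20 and at 20 to 42 and had log2 fold changes of -0.64 (SE 0.30) and -0.58 (SE 0.23).

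Paralogs of the members were sparser. The other mitochondrial creatine kinase, *Ckmt1*, had values of 0 to 2, and *Ngb*, neuroglobin, was at 0 in 5 libraries and at 2 in WT replicate 3, so neither was tested. The enzymes of creatine synthesis, *Gatm* at 21 to 36 and *Gamt* at 5 to 15, were low beside the transporter *Slc6a8*, and their differences of 0.02 (SE 0.24) and 0.16 (SE 0.37) had wide errors. Among other adenylate kinases, the mitochondrial *Ak3* had values of 481 to 547 and a difference of -0.02 (SE 0.07), *Ak4* had 115 to 174, and *Ak6* had 31 to 43. *Vdac2* had values of 571 to 633 in KO and 615 to 719 in WT hearts, with a difference of -0.13 (SE 0.07), close to that of *Vdac1*. The difference of *Vdac3* was 0.01 (SE 0.08). *Slc25a31*, the adenine nucleotide carrier of the germ line, was at 2 to 8 and not tested. Of the 7 AMP-activated kinase subunits, which sense the fall of ATP, 6 were lower in KO, with a median of -0.05 and no unadjusted p under 0.05. None of the 28 tested genes had an unadjusted p under 0.05 for the depth slope, whose median was -0.23, against 7 of the 10 members and 7.54% of all genes tested.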

How the data were processed

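The authors trimmed the reads (Trimmomatic 0.39), aligned them to GRCm38 (STAR 2.6.1d), removed duplicates (Picard 2.21.1) and multi-mapping, ribosomal and mitochondrial reads, and counted reads in exons by strand (featureCounts 1.6.5). The deposited value is a score, the count divided by the size factor the authors took from DESeq2 and rounded. It is neither a raw count nor per length, so no count model was used here. Size factors were recovered from the spacing of values under 1000 and checked on simulated data, and value times factor estimated the reads. log2(value + 1) was fitted with limma 3.58.1 in R 4.3.3 (lmFit, eBayes with a mean-variance trend) on genes with a mean of at least 10, two-sided, with Benjamini-Hochberg adjustment over all genes and a threshold of 0.05, for KO against WT and for log2 depth with group in the model. Genes named were the 10 members, *Trdn-as*, pathway genes at an unadjusted p under 0.05, paralogs of members, and the 3 genes most like *Mb*, besides markers by count. *Gatm*, *Gamt* and the genes that copy or overlap members were named outside this rule, after their values were seen. Lengths came from GENCODE M21 principal transcripts. Members and lists were chosen with earlier results of these data known. For 1 of these paralogs, values are not reported here.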

Additional observations from a re-analysis of the deposited data

How the results depend on the processing

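The differences between KO and WT were recomputed under 17 alternatives and the depth slopes under 16. No member passed an adjusted p of 0.05 (limma) between KO and WT under any of them. The number of genes past it, 4, was 2 with a minimum of 10 in every sample and 1 without the mean-variance trend, and ran from 2 to 32 as 1 library was left out. The 1 member at an unadjusted p under 0.05 was lost (0) without the mean-variance trend, with depth as a covariate and with the density correction. This number ran from 0 to 8 as 1 library was left out. Over all genes tested, 790 were at that level in the main fit, and 780, 778 and 788 under these alternatives in turn. As 1 library was left out, the number over all genes ran from 516 to 1183. The genes with a depth slope past an adjusted p of 0.05, 9, were 23 without the filter, 0 with a minimum of 10 in every sample, 0 without the mean-variance trend, 16 without the group term, 18 with the size factor for depth and 3 with a correction for occupied start positions, and ran from 0 to 131 as 1 library was left out. The member passing was 1, *Mb*, without the filter, without the group term and with the size factor, and 0 to 3 members passed as 1 library was left out. Members with an unadjusted p under 0.05 for the slope, 7, were 2 without the mean-variance trend and 3 with the occupancy correction, and 1 to 8 as 1 library was left out. Over all genes, 1037 of 13753 were at that level in the main fit, 880 of 13753 without the trend and 866 of 13727 with the occupancy correction. The number over all genes ran from 553 to 1609 as 1 library was left out. The occupancy correction turned the slope of *Ckmt2* to 0.094. As 1 library was left out, the difference of *Ckb* ran from -0.016 to 0.12 and that of *Slc6a8* from -0.16 to 0.059. With depth in the model, *Slc6a8* was at 0.077 and *Slc25a4* at 0.00026. Total scaling moved the median of all genes to 0.02 and that of the members to -0.09. The cause of these changes was not tested.

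The labels do not say whether same-numbered KO and WT hearts belong together. Their deviations from the group means had correlations of 0.05, -0.07 and -0.03. Depth fell with replicate number in KO hearts and rose with it in WT hearts, so these values cannot decide whether the hearts were paired. With a replicate block, 4 genes and 0 members passed between KO and WT, and 63 genes and 1 member, *Mb*, passed for depth, with 1 residual degree of freedom.

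Depth is estimated and spans 2.59 to 3.62 M reads in 6 libraries, with WT replicate 1 alone at the shallow end. Intervals cover the spread between these hearts only.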
